A study of Rattus norvegicus with 59 samples.

Results

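The comparison set 4 nuclear RNA libraries from sham-operated rats beside 4 from untrained control rats, 8 of the 59 samples in the series. Both groups were the reference arms of separate experiments, and they were chosen by their labels, not by a measured value. All libraries came from left-ventricle nuclei of male Sprague Dawley rats, an outbred laboratory stock, that had been sorted as positive for PCM1. The sham rats weighed about 170 g at the start, were anaesthetised and ventilated, and went through the chest operation with a suture laid around the ascending aorta but left loose, with buprenorphine for pain relief. The control rats weighed about 280 g and did no treadmill training. Start weight, surgery and the experiment itself changed together, so their parts in any difference below cannot be told apart. The other arms of the same experiments served as a second pair: banded rats, whose ascending aorta was constricted for 6 weeks and which were kept only if the heart was enlarged and not failing, and exercise rats, trained on a treadmill for 6 weeks. Whether each library stems from an animal of its own is not stated in the labels, and the p-values below reflect only how these samples spread, part of which may be technical.

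PCM1 is a protein of the centriolar satellites, the granules around the centrosome. In cardiomyocytes it gathers at the nuclear envelope, which lets their nuclei be sorted away from those of fibroblasts, endothelial cells and other cells of the heart. RNA of sorted nuclei holds newly made and not yet exported transcripts, so that it lies closer to transcription than RNA of whole tissue. Sorting is never complete, and a library of PCM1-positive nuclei can still hold RNA of other cells.

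Total counts per library ranged from 3.18 to 14.1 M (M standing for 1000000) in sham and from 1.82 to 7.80 M in control. Sham replicates 2 and 3 were near duplicates: their squared count differences were 1.07 times the counting variance, while the 11 remaining pairs within sham or within control lay at 2.71 to 18.4. They were therefore added and counted as 1 sample, which left 3 sham and 4 control samples. On log2 CPM (counts per 1000000 counts of the library, not divided by gene length), pairs of control libraries correlated at 0.968 to 0.980, pairs of sham samples at 0.921 to 0.970, and a sham with a control sample at 0.907 to 0.975. Sham replicate 1 stood apart in its share of counts from genes of PCM1-negative nuclei, described further below. Genes appear by their Ensembl IDs, since no ID was paired with a name here, and for the same reason the cell type markers were not checked by name and no sequence is shown.

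Few genes passed the test between sham and control, and those that did were mostly lower in sham in this fit, though not in every alternative. Of 11972 genes tested, 62 passed an adjusted p of 0.05 (0.518%), 21 of them higher in sham (0.175%) and 41 lower (0.342%), by edgeR's quasi-likelihood test with Benjamini-Hochberg adjustment. The median log2 fold change was 1.74 over the genes that rose and -2.08 over those that fell. Of the 62, 53 differed at least 2-fold (0.443% of the genes tested). A fold of at least 8 was reached by 2 genes that were higher in sham and 12 that were lower, while 16 and 23 lay between 2-fold and 8-fold and the other 3 and 6 below 2-fold. In all 62 genes the sham and control samples did not overlap, as was the case in 13.5% of the genes tested. At an unadjusted p under 0.05 there were 2072 genes (17.3%), 1123 higher and 949 lower in sham. Of the genes called, 66.1% were lower in sham here and 49.7% with DESeq2. Over all alternatives this share ranged from 16.7% with no filter on low counts to 80% without control replicate 4.

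The number of genes called depended on single samples. It was 11 without sham replicate 4, 19 without control replicate 1, 19 without control replicate 2, 14 without control replicate 3 and 10 without control replicate 4. Without the joined sham replicates 2 and 3 it was 1015, 723 of them higher in sham, and all 62 genes were among them. Without sham replicate 1 it was 79, with 47 of the 62. Of the 62 genes, 5 passed in each of the 7 fits that left out 1 sample, 2 higher and 3 lower in sham. A further 9 passed in 5 or 6 of these fits and 48 in 1 to 3. In the 61 genes tested in all 7 fits, the direction was the same in each. As sham and control did not overlap in any of the 62 genes, leaving out 1 sample could hardly have changed it.

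The genes named here are the 2 higher and the 2 lower genes with the smallest p. ENSRNOG00000008356 was found in sham and hardly in any other group. It had 23.2 CPM in sham 1, 32.7 in the joined sham 2 and 3, and 22.5 in sham 4, from 327, 368 and 286 counts. In control all 4 libraries stood at 1 count, the lowest value the table stores, which means no read or 1 read. Its mean was 26.1 ± 5.69 CPM in sham (SD, n = 3) against a floor of 0.860 CPM in control, the mean level of 3 counts in each library, so it was at least 30.4-fold higher in sham (adjusted p = 0.000552, edgeR). The banded libraries, from the same experiment as sham, held 10, 3, 2 and 2 counts, and the exercise libraries 1, 2, 4 and 1. Sham thus stood alone among the 4 groups. With so few counts in the other groups, the gene could pass the filter on low counts only through sham. The direction of each difference tested for it here was thus fixed in advance. In the authors' deposited table of log2 RPM (reads per 1000000) the gene stood at 4.78 in sham, -1.02 in banded, -2.09 in control and -1.38 in exercise. It was the only 1 of 12650 genes (0.00791%) for which the sham-control difference passed as different from the banded-exercise difference, by 6.64 on the log2 scale (SE 0.94, adjusted p = 0.0408, edgeR interaction term), a fitted value that depends on the prior count. At an unadjusted p under 0.05 there were 488 such genes (3.86%).

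ENSRNOG00000027818 separated the experiments in both pairs of groups. Its CPM was 54.4 in sham 1, 75.5 in the joined sham 2 and 3 and 55.5 in sham 4. The control libraries held 11.7, 11.5, 11.5 and 11.7 CPM, from 91, 21, 60 and 42 counts. Counting error alone would spread such counts more widely than this, so their closeness does not measure how steady the gene was in control. The means were 61.8 ± 11.8 (SD, n = 3) and 11.6 ± 0.077 (n = 4), a log2 fold change of 2.35 (SE 0.17, adjusted p = 0.00278, edgeR). Banded libraries had 56.0, 37.1, 37.3 and 59.4 CPM and exercise libraries 8.39, 10.8, 9.48 and 11.7, again without overlap. That difference was 2.11 (SE 0.20, adjusted p = 0.00151, edgeR), and the difference between both was 0.23 (SE 0.27, adjusted p = 1, edgeR interaction term). In the authors' deposited table of PCM1 fractions the gene was not enriched in either fraction at a false discovery rate of 0.05 (log2 fold change -0.64, 0.0706).

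ENSRNOG00000014118 was nearly absent from sham. Its counts were 4 in sham 1, 3 in the joined sham 2 and 3 and 2 in sham 4, against 76, 13, 26 and 21 in control. In CPM these were 0.284, 0.266 and 0.157 in sham and 9.74, 7.13, 5.00 and 5.83 in control, with no overlap. The 9 summed counts of sham and 136 of control made control 31.2 times higher, with an exact 95% interval of 16.0 to 69.8 that covers counting error only, not the spread between samples or PCR copies. The fitted log2 fold change was -4.87 (SE 0.41, adjusted p = 0.00589, edgeR). Banded libraries held 1, 8, 1 and 5 counts, so this gene was low in both arms of the surgery experiment. Exercise libraries held 6, 3, 6 and 18 counts, 1.68 ± 0.985 CPM (SD, n = 4), which lay between sham and control. It had too few counts to be tested between banded and exercise.

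ENSRNOG00000001338 fell in sham and was low in banded as well. Its CPM was 16.7 in sham 1, 28.2 in the joined sham 2 and 3 and 17.4 in sham 4. Control libraries held 125, 128, 121 and 168 CPM, so the lowest control library was above every sham sample. The means were 20.8 ± 6.48 (SD, n = 3) and 136 ± 22.0 (n = 4), a log2 fold change of -2.76 (SE 0.24, adjusted p = 0.00589, edgeR). Banded libraries had 16.7, 13.2, 10.5 and 20.5 CPM and exercise libraries 92.6, 60.8, 66.9 and 141. That difference was -2.68 (SE 0.30, adjusted p = 0.00267, edgeR). In the authors' deposited table of PCM1 fractions this gene was read as enriched in PCM1-positive nuclei (log2 fold change -5.25, false discovery rate 1.24e-22), where the direction of the fold was inferred as described further below.

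**Figure D1:**
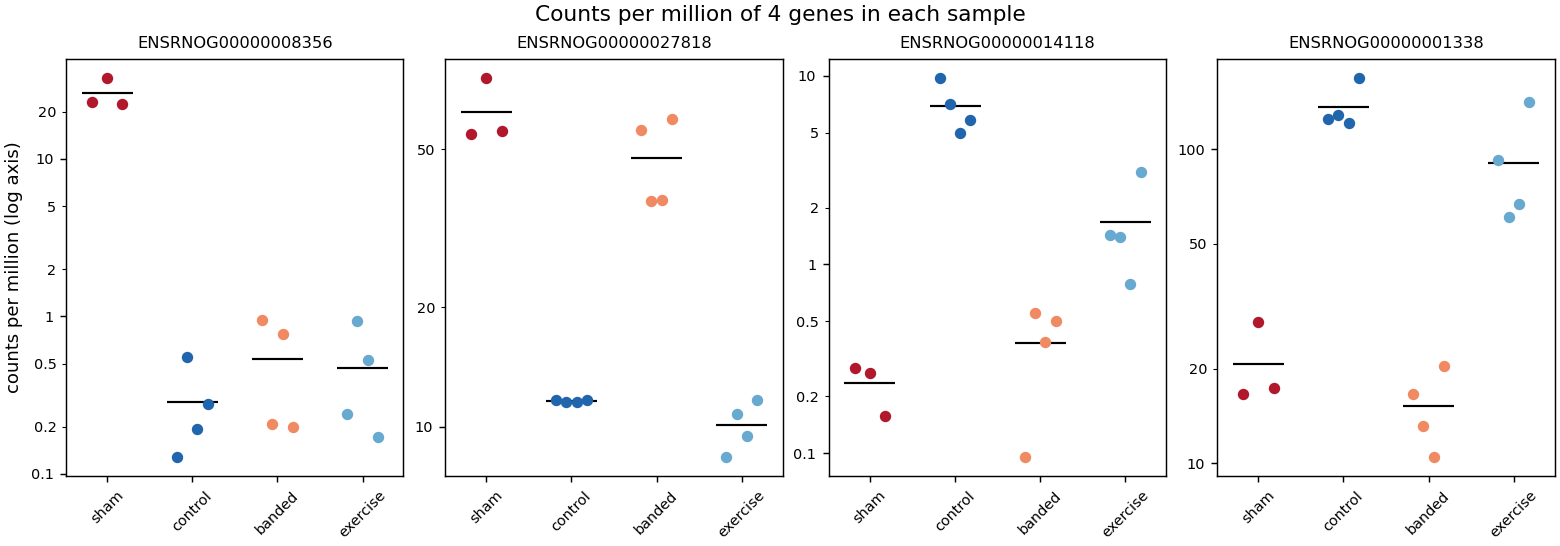
CPM (log axis) of the 4 named genes, with a point for each sample and a line at each group's mean. Sham is 3 points, since replicates 2 and 3 are joined, and the other groups are 4 each. Sham stands alone for ENSRNOG00000008356, whose control points are all the stored minimum of 1 count, while for the other genes banded lies near sham.

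The banded and exercise libraries share no library with sham and control but come from the same pair of experiments. Between banded and exercise, 209 of 11556 genes passed (1.81%), 109 higher in banded (0.943%) and 100 lower (0.865%). Of the 62 genes called between sham and control, 56 were tested there, and 54 differed in the same direction. Over all 11487 genes tested in both comparisons 72.4% had the same direction. In both comparisons 26 genes passed, 10 higher and 16 lower in the surgery experiment, which is 41.9% of the 62 and 12.4% of the 209. At an unadjusted p under 0.05, which 21.5% of the genes tested between banded and exercise reached, 43 of the 56 passed in the same direction. The median absolute log2 difference of the 56 genes was 1.86 between sham and control, the comparison that chose them, and 1.17 between banded and exercise, and 43 of them had the smaller value in the latter.

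Across these 11487 genes both log2 differences correlated with Pearson's r of 0.769 and Spearman's rho of 0.648. Genes are not independent replicates, and sham replicate 1 and banded replicate 1 deviated from their group means together. Without replicate 1 of all 4 groups r was 0.492 and rho 0.393 over 11147 genes. Without the genes enriched in PCM1-negative nuclei r was 0.588 and rho 0.488 over 8633 genes.

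**Figure D2:**
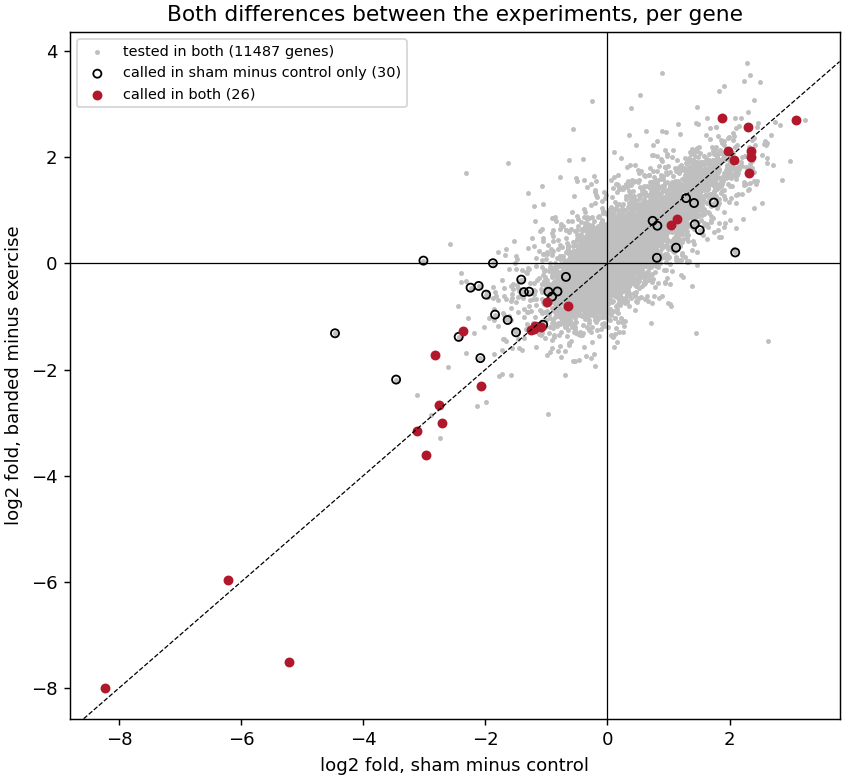
Log2 fold of sham minus control (x axis) against banded minus exercise (y axis) for the 11487 genes tested in both, with the line of equal differences dashed. Of the marked genes, 26 passed in both comparisons and 30 between sham and control only, and 54 of the 56 lie in a quadrant of equal sign.

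In most of the 62 genes the banded level lay near sham and the exercise level near control. On the log2(CPM + 0.5) scale, with the control mean set to 0 and the sham mean to 1, the banded mean had a median position of 0.908 and the exercise mean of 0.111. The sham and control values that set this scale also chose the genes, and positions were not taken over all genes tested. The banded mean lay nearer to sham than to control in 54 genes, and the exercise mean nearer to control in 57. Both held in 49 genes, 17 of the 21 that rose and 32 of the 41 that fell, and each of the other 13 met only 1 of them: 8 had banded near control, ENSRNOG00000008356 among them, and 5 had exercise near sham.

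**Figure D3:**
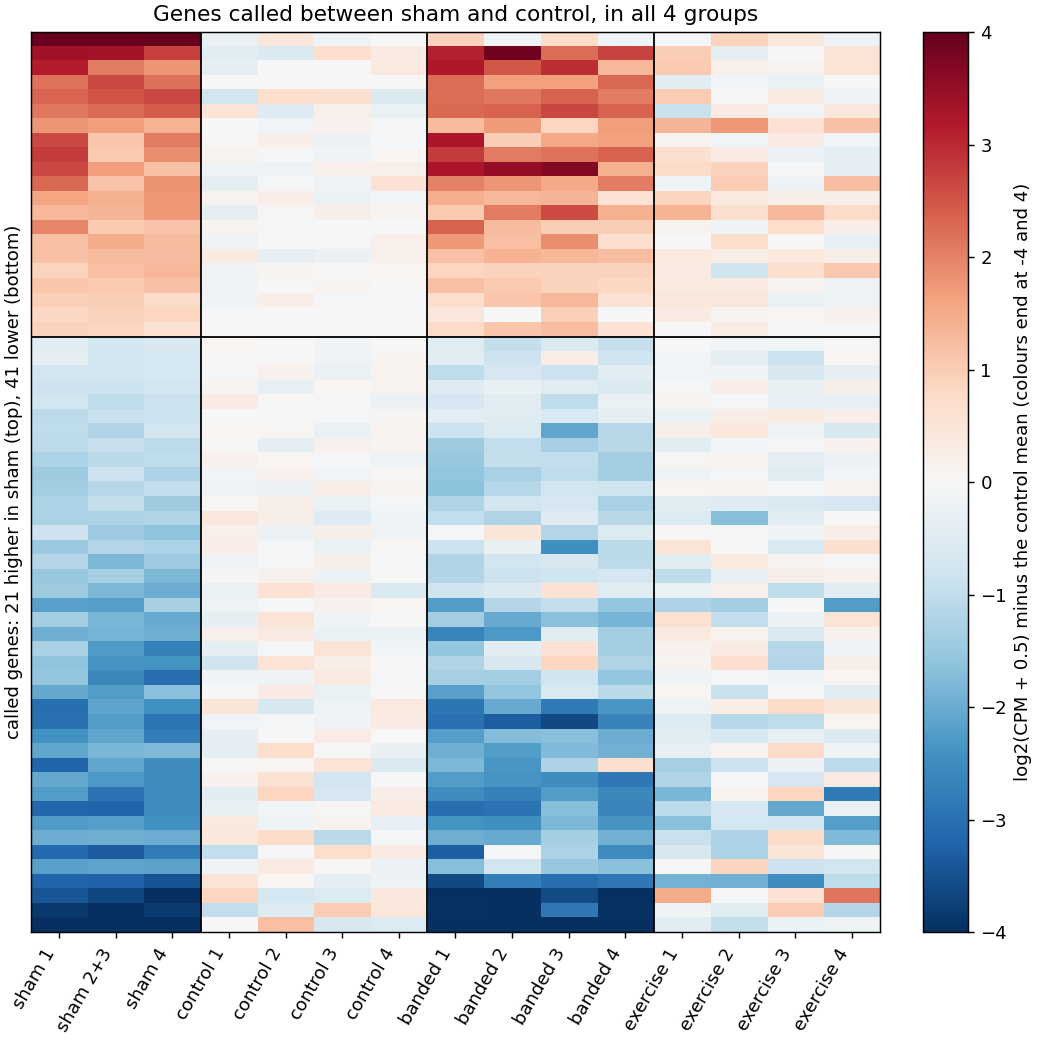
The 62 genes called between sham and control (rows, ordered by fold) in each sample of the 4 groups (columns), as log2(CPM + 0.5) minus the control mean, with colours ending at -4 and 4. The 21 higher genes and the 41 lower genes chose the pattern in the sham and control columns. The banded columns mostly resemble sham and the exercise columns control, with the top row, ENSRNOG00000008356, high in sham only.

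A group of the lower genes was nearly absent from sham. Among the 41 lower genes, 9 had 10 counts or fewer in each sham sample, of 28 such genes tested, ENSRNOG00000014118 among them. With so few counts in sham, the 28 could pass the filter on low counts only through control, so their direction was fixed in advance. In reverse, 2 of the genes called higher had 10 counts or fewer in each control library, of 494 such genes tested, in libraries with fewer counts. The 9 lower genes were picked after their values were seen. Their mean level ranged from 2.02 to 11.3 CPM in control with a median of 4.80, and the median in sham was 0.236 CPM. In banded 7 of the 9 also had 10 counts or fewer in every library, with a median of 0.278 CPM over the 9, while the median in exercise was 2.89 CPM. All 9 were higher in exercise than in sham, and 6 of them were lower in exercise than in control. Between banded and exercise 5 were tested and 4 of these passed as lower in banded. With so few counts in banded, these 4 could pass the filter on low counts only through exercise. Their direction was thus fixed in advance there too. In the authors' deposited table of PCM1 fractions 3 of the 9 were listed, and all 3 were enriched in PCM1-positive nuclei. That table was made from control rats, where these genes were present.

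The largest fall of the 62 belonged to another gene that was nearly lost from both arms of the surgery experiment. It was singled out after its values were seen. It held 19 counts in sham 1 and the stored minimum of 1 in the joined sham 2 and 3 and in sham 4, and 3, 5, 6 and 1 counts in the banded libraries. In control it held 1069, 576, 459 and 342 counts, 137, 316, 88.3 and 95.0 CPM, and in exercise 103, 70.7, 114 and 122 CPM. The groups of the exercise experiment were thus high in every library and those of the surgery experiment low in every library. Its log2 fold change was -8.23 (SE 0.85, adjusted p = 0.00999, edgeR) between sham and control and -7.99 (adjusted p = 9.41e-05, edgeR) between banded and exercise. With so few counts in sham and banded, the gene could pass the filter on low counts only through control and exercise. Its direction was thus fixed in advance in both comparisons, and both folds are fitted values that depend on the prior count. In the authors' deposited table of PCM1 fractions, made from control rats, its log2 fold change was -3.32, on the side of PCM1-positive nuclei.

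Among the 62 genes, 3 with a control mean over 1000 CPM passed between sham and control but not between banded and exercise. They were picked after their values were seen. Their means were 379 ± 127, 796 ± 162 and 380 ± 198 CPM in sham (SD, n = 3) and 1688 ± 592, 2757 ± 992 and 1529 ± 433 in control (n = 4). The log2 fold changes were -2.24, -1.88 and -2.11, with edgeR's adjusted p at 0.0419, 0.0499 and 0.0499. Between banded and exercise the same genes differed by -0.46, 0.00283 and -0.43, with edgeR's adjusted p at 0.651, 0.997 and 0.655. The difference between both differences did not pass for any of them (adjusted p of 1, 0.979 and 1, edgeR interaction term). All 3 were highest in the library with the fewest counts in banded (replicate 3, at 2916, 3915 and 2229 CPM) and in exercise (replicate 2, at 2520, 2995 and 1885 CPM). In control the library with the fewest counts, replicate 2, was the highest for 2 of the 3, at 2324 and 3882 CPM, and in sham all 3 were highest in the library with the most counts, sham 1. The part of library depth was not tested. They passed in 3, 1 and 2 of the 7 fits that left out 1 sample.

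Calls occurred at every level of expression. With the 11972 genes split by mean log2 CPM into 4 equal groups, 18 of 2993 genes in the lowest of these were called (0.601%), against 0.301%, 0.401% and 0.768% in the next 3. Among the genes of lowest level 2 were higher and 16 lower in sham, and among those of highest level 9 were higher and 14 lower. With all libraries thinned to 1822538 counts, the smallest control library, 57 genes were called and 42 of the 62 were among them.

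Genes that mark the sort were followed through the authors' deposited table of PCM1 fractions, which lists 12848 genes. Its nuclei came from control rats, so its classes rest on levels in control and not in sham. A gene high in control and near absent from sham can thus be listed as PCM1-positive-enriched through control alone. How far this shapes the split of the calls was not tested. The table does not say in which direction its fold runs, and its title, which sets PCM1-positive against PCM1-negative nuclei, would by itself make positive values higher in PCM1-positive nuclei. The 1319 genes over 8-fold on its positive side had a median of 1.61 log2 CPM in the control libraries of PCM1-positive nuclei and the 604 genes over 8-fold on its negative side one of 6.83, so positive values were read here as higher in PCM1-negative nuclei, an inference from these levels. Genes enriched in PCM1-positive nuclei held 31 of the 62 calls, 5 higher and 26 lower in sham, out of 3059 tested (1.01%). Genes enriched in PCM1-negative nuclei held 6, all higher in sham, out of 3064 (0.196%). Listed genes enriched in neither fraction held 15, 9 higher and 6 lower, out of 5475 (0.274%), and genes not in the table held 10, 1 higher and 9 lower, out of 374 (2.67%). Of those that were also tested between banded and exercise, where 1.81% of all genes passed, 13 of 30 genes enriched in PCM1-positive nuclei passed, 4 of 6 enriched in PCM1-negative nuclei, 6 of 15 enriched in neither and 3 of 5 not in the table.

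Genes over 8-fold higher in PCM1-negative nuclei took a larger share of the counts in 2 of the 3 sham samples than in any control library, most of all in sham 1. Their share was 4.32% of counts in sham 1, 0.655% in the joined sham 2 and 3 and 1.58% in sham 4. In control it was 0.956%, 0.728%, 0.536% and 0.944%. Sham 1 and sham 4 lay above all control libraries and the joined sample within their range. The means were 2.18% ± 1.90 (SD, n = 3) and 0.791% ± 0.200 (n = 4), a difference of 1.39 percentage points. It did not pass the threshold (two-sided exact permutation test, p = 0.229, 0.343 after Benjamini-Hochberg adjustment over 6 share comparisons). With 3 samples against 4 this exact test cannot give a p below 0.0571. Without sham replicate 1 the difference was 0.324 percentage points. In banded the share was 4.45%, 0.859%, 1.31% and 1.68% and in exercise 0.865%, 0.611%, 0.614% and 0.757%, and replicate 1 was the highest in each of the 4 groups, narrowly so in control and exercise. Genes over 8-fold higher in PCM1-positive nuclei took 24.6% to 31.8% of counts in sham and 30.5% to 32.0% in control. More nuclei of a type and more RNA per nucleus cannot be told apart in these libraries.

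The same genes shifted together in the fold changes, and most of that shift came with sham replicate 1. Of the 1090 genes tested that were over 8-fold higher in PCM1-negative nuclei, 2 were called (0.183%, against 0.518% of all genes tested), both higher in sham. The median log2 fold change of the 1090 was 1.27, against 0.02 over all genes tested. Without sham replicate 1 that median was 0.43. Over the 3064 tested genes of any enrichment in PCM1-negative nuclei it was 0.50, and 0.14 without sham replicate 1. For the 3059 tested genes of the PCM1-positive side it was -0.15, and -0.031 without that sample. With the share of the PCM1-negative genes as a covariate, 60 genes were called, 21 higher and 39 lower, 41 of the 62 among them. Without replicate 1 in either group 46 were called, 14 higher and 32 lower, 27 of the 62 among them. Between banded and exercise, 990 of the genes over 8-fold higher in PCM1-negative nuclei were tested, and their median was 1.30. It was 0.72 without banded replicate 1. Of the 990, 34 were called higher in banded and 0 lower, where 209 of all 11556 genes tested passed.

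**Figure D4:**
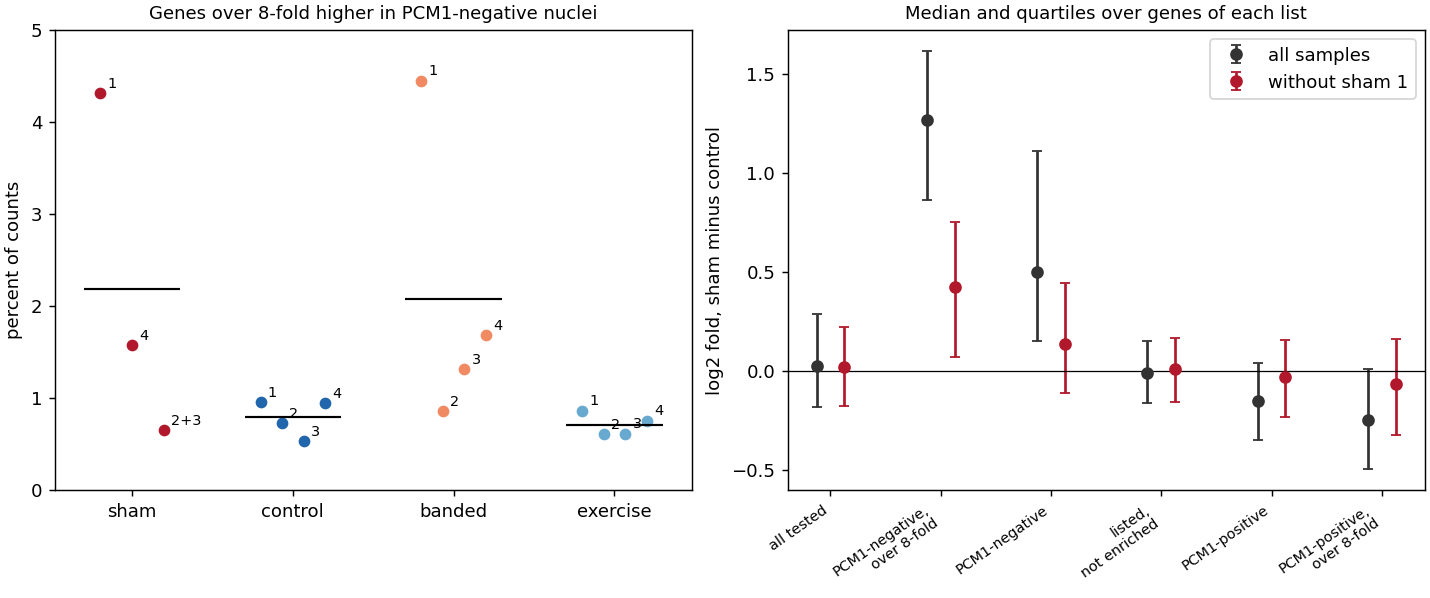
Left, percent of counts from the 1319 genes over 8-fold higher in PCM1-negative nuclei, with a point for each sample, its replicate number beside it and a line at the group mean. Right, median and quartiles over genes of the log2 fold of sham minus control for each list, with all samples and without sham replicate 1. Replicate 1 is the highest in all 4 groups (4.32% in sham, 4.45% in banded, 0.956% in control and 0.865% in exercise), and the median of that list moves from 1.27 to 0.43 when sham 1 is left out.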

How the data were processed

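The authors deposited whole-number read counts per gene, per the file headers and values, in a table for each experiment. The smallest stored count was 1, so that 0 and 1 cannot be told apart. Both tables held the same 22938 IDs, and 2 rows without an ID that repeated the totals were left out. Per the labels' protocols, sorted nuclei were lysed, and RNA was copied with random primers and amplified by PCR. Bowtie, SAMtools, edgeR and R 2.15.1 appear in the submitters' processing notes, without roles. For the genome build, the counting rule and the use of strand, nothing is stated in the labels or headers, which leaves overlapping, antisense and near-identical genes uncertain. Deposited by the authors were further log2 RPM values per group and a table of log2 fold changes with false discovery rates (adjusted p-values) between PCM1 fractions. Its test is not named in the file. None of the 22938 IDs (0) matched a name in the reference table of 47357 genes (assembly GRCr8), so lists written as gene names were not tested.

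Counts were tested with edgeR 4.0.16 in R 4.3.3 (quasi-likelihood test, TMM factors, filterByExpr set to 10 counts per library and 15 in total, threshold 0.05, 3 sham against 4 control samples). Sham replicates 2 and 3 were added, less 1 count. Standard errors came from the F statistic. Shares were tested with scipy 1.17.1. DESeq2 1.42.0 and limma 3.58.1 (voom) were alternatives, and matplotlib 3.10.9 drew the figures. The script was tested on simulated data. The named genes are the 2 higher and 2 lower in sham with the smallest p among those with adjusted p under 0.05, at least 2-fold and without overlap. The groups, lists and tests were chosen with earlier results of these data known.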

Additional observations from a re-analysis of the deposited data

Results flagged for a closer look

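ENSRNOG00000008356 was flagged because its difference between sham and control exceeded that between banded and exercise by 6.64 on the log2 scale (SE 0.94, adjusted p = 0.0408, edgeR interaction term). It was higher than every other sample in 3 of 3 sham samples.

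ENSRNOG00000001338 was flagged because 1 control library, replicate 4 at 168 CPM, lay far from the other 3, which held 121 to 128 CPM. Such a flag arises by chance in about 1 of 20 groups, and 21 groups were examined. Without control replicate 4 the log2 fold change of this gene was -2.67, against -2.76 with it.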

How the results depend on the processing

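Between sham and control, against 62 genes, 575 were called with DESeq2 (289 higher, 286 lower), 27 with limma voom, 480 with no filter on low counts (400 higher), 24 among genes of at least 10 CPM on average, 119 with all 4 groups in the fit and 135 with sham replicates 2 and 3 kept apart. Leaving out 1 sample gave 10 to 1015. Same-numbered sham and control samples correlated in their deviations at 0.035 to 0.334, so the numbers were not taken to pair the samples, and with a replicate block and the sham pair apart 130 were called. Between banded and exercise, against 209, 1090 were called with DESeq2, 770 with no filter, 765 with a replicate block and 38 to 940 leaving out 1 library. The genes called in both comparisons, 26, were 79 with DESeq2, 12 with limma voom, 72 with no filter, 13 at 10 CPM or more, 50 with all 4 groups and 3 to 92 leaving out 1 sample. The cause of these changes was not tested. The difference in the share of counts from PCM1-negative-enriched genes was 0.324 to 2.16 percentage points leaving out 1 sample, and no alternative passed the threshold in a design that could hardly reach it. The median of PCM1-positive-enriched genes turned to 0.104 with no filter and 0.0046 with the share as covariate, and that of the genes over 8-fold to 0.0105 with no filter. The 4 named genes passed with the same direction under every alternative in which they were tested. These were 22 each and 21 for ENSRNOG00000014118, which fell below the minimum of 10 CPM. The genes were chosen by their small p and lack of overlap in the same libraries that the alternatives use again. Their direction could thus hardly have changed. The stored minimum of 1 count limits folds of genes with few counts, and in libraries of 1.82 to 14.1 M counts a level of 3 counts lies at different CPM.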
